A study of Rattus norvegicus with 4 samples.

Results

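Clusterin and 6 genes of the complement system (C3, C2, C1s, Serping1, Cd59 and Cd55) were followed in rat hepatic stellate cells in which endoglin had been targeted by siRNA. Members were chosen by name: every probe that the scanner files list under 1 of these 7 names counted, without the endings predicted or mapped. The rule found 6 of the 7 genes with 8 probes, of 35561 names and 41012 probes in all. C1s and Serping1 had more than 1 probe each, and Cd55 had none under that name. A probe listed as Daf1, the older name of Cd55, matched Cd55 by accession in the RefSeq gene table and is described separately. The group was proposed with results of these arrays known, so the members' own ratios are given as a description, with no p-value. Counts of members passing the fit across all genes are printed only beside the share of all genes that pass.

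The study asked what endoglin does in hepatic stellate cells, pericytes of the rat liver that store retinoids. Each of 4 two-colour Agilent arrays set Cy5-labelled test RNA against Cy3-labelled RNA of stellate cells transfected with a control siRNA. The test RNA came from untreated cells on 2 arrays and from cells transfected with an siRNA against endoglin on 2 arrays. In each group the RNA of 1 array came from 1 animal and that of the other from a pool of 3 animals, and the control siRNA RNA came from the same kind of source as the test RNA beside it. The untreated cells were not transfected, so untreated and control siRNA cells differ in transfection as a whole. The sources used here give no strain, age, culture time or siRNA sequence. No dyes were swapped, so in a ratio to control siRNA dye and treatment cannot be told apart, whereas endoglin siRNA minus untreated compares ratios of the same dye orientation. The labels do not say whether arrays shared animals or control RNA, and spread between arrays may therefore be partly technical.

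Complement is a cascade of plasma and tissue proteins that marks surfaces for clearance and calls in immune cells. C1s is the protease that starts the classical pathway, C2 supplies the protease of its C3 convertase, and C3 is the central component on which all pathways meet. Serping1 (C1 inhibitor) blocks C1s and C1r, Cd55 speeds the decay of convertases, and Cd59 and clusterin hinder assembly of the membrane attack complex. Clusterin is also an extracellular chaperone that cells produce under stress. Hepatocytes make most circulating complement, and stromal cells and macrophages of the liver make several components as well.

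Clusterin was the member whose ratios had opposite signs in the treatments: it lay below control siRNA in both untreated samples and above it in both endoglin siRNA samples. C3 separated the RNA sources instead, with ratios above 0 in both 1-animal samples and below 0 in both pools. C2 was high in 1 untreated sample, and C1s, Serping1 and Cd59 showed no separation of the treatment groups.

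Endoglin itself had log2 ratios to control siRNA of -3.08 (1 animal) and -1.72 (pool) in the endoglin siRNA samples and of -0.36 and -0.42 in the untreated samples. Its mean in the endoglin siRNA samples fell by 2.40 ± 0.26 (SE, n = 2), with an adjusted p of 0.005103 in limma. Endoglin siRNA minus untreated was -2.02 ± 0.37 and did not pass (adjusted p = 0.1783 in limma). Of 43379 gene spots, 93.3% (Cy5) and 87.2% (Cy3) were well above background on the untreated pool array. On the other arrays the share in a channel ran from 61.9% to 70.2%, and 0 probes were saturated on any array. Ratios are Cy5 over Cy3 as the labels give the dyes. The deposited value table has the opposite sign on both untreated arrays, so the direction of every untreated ratio below rests on the labelled dyes. In these bulk samples, fewer cells of a type and less RNA per cell cannot be told apart.

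Promoters of C3 and of the pathway gene C4a are shown because C3 divided the RNA sources and C4a is 1 of the complement genes outside the chosen group described below. They are RefSeq sequences of the GRCr8 assembly, the 250 bases before the gene's start, 5′ to 3′ on the gene's strand, C3 on the minus strand at chr9:2201340-2201589 and C4a on the plus strand at chr20:4010107-4010356. Capitals mark a match to 1 of 5 motifs searched on both strands (C/EBP as TTGCGNAA, AP-1 as TGANTCA, an NF-kappaB motif, E-box as CACGTG and GAS as TTCNNNGAA).
C3: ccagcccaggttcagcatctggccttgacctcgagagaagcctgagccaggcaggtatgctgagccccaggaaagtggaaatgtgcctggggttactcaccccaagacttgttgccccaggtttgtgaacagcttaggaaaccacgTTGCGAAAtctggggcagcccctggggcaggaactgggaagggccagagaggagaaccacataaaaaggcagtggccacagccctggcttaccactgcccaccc
C4a: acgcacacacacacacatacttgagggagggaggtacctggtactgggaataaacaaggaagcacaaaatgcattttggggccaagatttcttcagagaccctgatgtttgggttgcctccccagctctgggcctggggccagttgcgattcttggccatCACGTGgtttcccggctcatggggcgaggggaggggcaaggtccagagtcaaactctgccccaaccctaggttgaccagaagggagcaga
The C/EBP match TTGCGAAA lies 104 bases before the C3 start, and the E-box match CACGTG lies 90 bases before the C4a start. The search window ran to 50 bases after the start. Of 33469 promoters of that length, 0.85% held TTGCGNAA, 6.42% CACGTG, 7.33% TGANTCA, 1.3% the NF-kappaB motif and 8.87% TTCNNNGAA. The Cd55 promoter held none of the 5 motifs. The promoters of Clu, C2, C1s, Serping1 and Cd59 were not analysed here, and a match is a description of letters, not of binding.

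Among the initiating components, C1s had, on its brighter probe, normalized log2 Cy3 control siRNA levels of 15.15 and 15.21 on the 1-animal arrays and 14.40 and 14.36 on the pooled arrays. Its log2 ratios on this probe, at chr4:160981661-160981720, were 0.00 (1 animal) and -0.02 (pool) in untreated cells and -0.05 and 0.22 in endoglin siRNA cells. The ratios of the groups overlap, and the pool given endoglin siRNA is the highest. The dimmer C1s probe, at chr4:160982100-160982159, gave -0.28 and -0.21 in untreated cells and -0.46 and -0.13 in endoglin siRNA cells. Its values lie below 0 on all 4 arrays, and they also overlap between the groups. The position of each probe is that of the array files, which name no genome build.

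C2 (probe at chr20:4071731-4071790) had log2 ratios of 0.67 (1 animal) and 0.00 (pool) in untreated cells and of -0.05 and -0.06 in endoglin siRNA cells. The groups do not overlap, but as processed here the gap is narrow and the mean rests on the untreated 1-animal array. The pools stood further apart with no background correction, at 0.04 (untreated) and -0.29 (endoglin siRNA). With the log ratios of Feature Extraction they were 0.02 and -0.36, and with median centring -0.34 and 0.43, in the other order. The mean difference of endoglin siRNA minus untreated was -0.39 ± 0.20 (SE, n = 2 arrays a group). Within RNA sources it was -0.72 for the single animal and -0.06 for the pools, and without untreated replicate 1, the 1-animal array, it was -0.05. The Cy5 level was 10.26 on that array, and the Cy3 levels beside all 4 samples ran from 9.12 to 9.60.

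C3 (probe listed at 64513437-64513496 of the unplaced sequence) had log2 ratios of 1.14 (1 animal) and -0.22 (pool) in untreated cells. In endoglin siRNA cells they were 0.79 and -0.38. The 1-animal samples are high and the pools low whatever the treatment, so the treatment groups overlap widely. The mean difference of endoglin siRNA minus untreated was -0.26 ± 0.48 (SE, n = 2 arrays a group), within the spread between arrays, and the within-source differences were -0.35 and -0.16.

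In the normalized levels of C3, both channels took part in the division by source. The Cy3 control siRNA level was 9.88 and 9.91 on the 1-animal arrays and 10.85 and 10.67 on the pooled arrays, 1.82-fold higher in the pools by the means. The Cy5 levels ran the other way, at 11.02 (untreated) and 10.70 (endoglin siRNA) for 1 animal against 10.63 and 10.29 for the pools. In each channel these normalized levels of the sources did not overlap. Before normalization the Cy5 signals over background did overlap. They were 2599.5 (untreated) and 2417.2 (endoglin siRNA) for 1 animal, and 2725.2 and 1621.3 for the pools.

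Of the regulators, Serping1 had Cy3 control siRNA levels from 15.66 to 16.11 on its brighter probe. This probe, at chr3:67865200-67865259, gave log2 ratios of 0.47 (1 animal) and 0.39 (pool) in untreated cells and of 0.67 and 0.11 in endoglin siRNA cells. All 4 values are above 0 and the groups overlap. The means were 0.43 ± 0.12 in untreated and 0.39 ± 0.12 in endoglin siRNA cells (SE, n = 2 each), with a difference of -0.04 ± 0.17.

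The direction for Serping1 depended on probe and processing. The dimmer probe, at chr3:67871491-67872830, gave -0.03 and -0.20 in untreated cells and -0.22 and -0.20 in endoglin siRNA cells, below 0 on all 4 arrays. With the log ratios of Feature Extraction the brighter probe gave 0.13 and -0.02 in untreated cells and 0.32 and -0.03 in endoglin siRNA cells, so both pools lay at or just below 0. Serping1 therefore had no ratio to control siRNA that held across its probes.

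Cd59 (probe at chr3:89141135-89141194, current RefSeq symbol Cd59b) had log2 ratios of 0.08 (1 animal) and -0.14 (pool) in untreated cells and of 0.12 and 0.01 in endoglin siRNA cells. The groups overlap and all values lie close to 0. Its level differed far more than its ratio: on the untreated 1-animal array it was 11.89 in Cy5 and 11.81 in Cy3, against 13.28 to 13.56 in Cy5 and 13.40 to 13.55 in Cy3 on the other arrays. Both dyes are low on that array, including the control siRNA RNA, whereas the control of the other 1-animal array stood at 13.40. The Daf1 probe, which matches Cd55, was dim, with signals over background between 19.9 and 122.9, and gave -0.22 and -0.08 in untreated cells and 0.06 and -0.01 in endoglin siRNA cells. Its groups do not overlap, but the size of the difference depended on the processing. It was 0.18 as processed here and 0.80 with the log ratios of Feature Extraction, which differ in background and dye correction.

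Clusterin (probe at chr15:45420570-45420918) had log2 ratios to control siRNA of -0.33 (1 animal) and -0.58 (pool) in untreated cells. In endoglin siRNA cells they were 0.81 and 0.48. Both untreated samples are low and both endoglin siRNA samples are high, with no overlap and opposite signs. The mean was 0.65 ± 0.10 in endoglin siRNA cells, 1.57-fold above control siRNA, and -0.45 ± 0.10 in untreated cells (SE, n = 2 each). Endoglin siRNA minus untreated was 1.10 ± 0.14, 2.14-fold, and this difference was 1.14 for the single animal and 1.06 for the pools.

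Clusterin levels also depended on the RNA source, in the same way in each condition. The Cy3 control siRNA level was 11.16 and 11.02 on the 1-animal arrays and 12.70 and 12.68 on the pooled arrays, 3.03-fold higher in the pools. The Cy5 level of untreated cells was 10.83 (1 animal) and 12.13 (pool), and that of endoglin siRNA cells was 11.83 and 13.16. Within each source the order was thus untreated lowest, control siRNA between and endoglin siRNA highest. Across sources, the level of every 1-animal sample was below that of every pool.

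**Figure D1:**
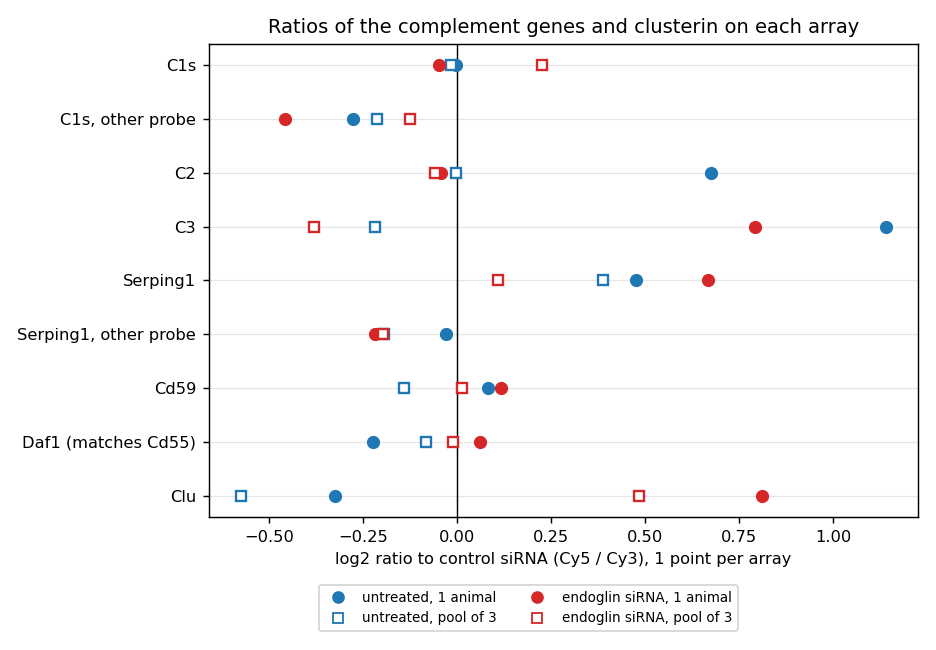
Log2 ratio to control siRNA (x axis) of each probe of the chosen genes, with the Daf1 probe that matches Cd55; each point is 1 array, filled circles are 1 animal and open squares pools of 3, blue untreated and red endoglin siRNA. Clusterin runs from -0.58 to 0.81 with the colours apart, and C3 from -0.38 to 1.14 with the circles and squares apart.

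**Figure D2:**
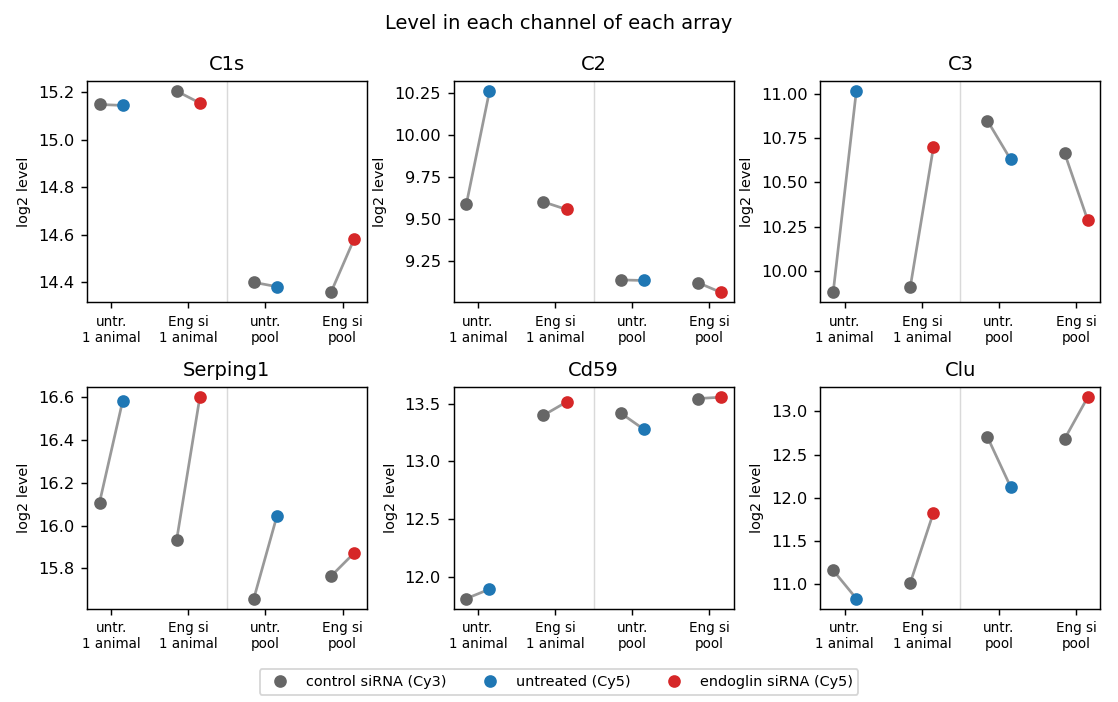
Normalized log2 level of the brightest probe of each gene in both channels of each array; grey points are control siRNA in Cy3 and coloured points untreated or endoglin siRNA in Cy5, joined within an array, and the y axes differ between genes and do not start at 0. Clusterin levels are higher in the pools in every condition, and Cd59 is low in both channels of the untreated 1-animal array (11.81 and 11.89).

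Counted over the group, 1 of the 6 measured members passed the threshold in endoglin siRNA against control siRNA (clusterin, higher), where 8.12% of the 25534 genes tested did in either direction, 5.25% higher and 2.87% lower. The count was 0 of 6 in untreated against control siRNA, where 0.709% of all genes passed, 0.435% higher and 0.274% lower, and 0 of 6 in endoglin siRNA minus untreated, where 0.0862% passed, 0.0352% higher and 0.0509% lower. These calls are from limma with Benjamini-Hochberg adjustment at 0.05. No reading is given of these counts, since the group was chosen with these comparisons known.

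The other patterns were as common as follows. The ratios of the treatment groups did not overlap for 2 of 6 members, C2 and clusterin, and for 35.9% of all genes. Both treatments had opposite signs for 1 of 6, clusterin, against 10.1% of all genes. The RNA sources had opposite signs for 1 of 6, C3, against 7.44% of all genes. The median member ratio was 0.15 in endoglin siRNA and 0.16 in untreated cells, beside 0.02 and 0.00 over all genes, and the median difference between the treatments was 0.03 beside 0.02.

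The rest of the complement pathway gives the setting of these values. Of 36 further complement names on the arrays, a list without C1q, 26 were tested. The C1q genes were counted with the macrophage markers and are given with them. In endoglin siRNA against control siRNA 0 of the 26 rose and 1 fell in limma. Over all genes 5.25% rose and 2.87% fell. The gene that fell was C4a, whose product is cleaved by C1s and joins C2 in the classical C3 convertase. Its log2 ratios were -0.98 (1 animal) and -0.67 (pool) in endoglin siRNA cells and -0.23 and -0.16 in untreated cells. Both endoglin siRNA samples are the low ones, with a mean of -0.83 ± 0.08 (SE, n = 2) and an adjusted p of 0.004591 in limma; with median centring and no loess the mean was 0.30, and the direction depends on the correction of dye bias. Rat has a near-identical C4b, and a probe may read both.

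Of complement genes picked for their role after their values were seen, C1r, the partner protease of C1s, had ratios of 0.02 and 0.27 in untreated and 0.01 and 0.13 in endoglin siRNA cells and did not pass. Factor D (Cfd), the protease of the alternative pathway that leads to C3 cleavage, had log2 ratios of 1.02 and 0.16 in untreated and 0.70 and 0.02 in endoglin siRNA cells. Like C3, it was highest in the 1-animal samples of both treatments, but its pools did not go below 0. Crry (Cr1l), a rodent regulator that acts on C3 convertases as Cd55 does, had -0.02 and 0.38 in untreated and 0.30 and 0.29 in endoglin siRNA cells.

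In untreated against control siRNA, 2 of these 26 genes, both of them receptors, rose and 0 fell in limma. Over all genes 0.435% rose and 0.274% fell. Itgb2, the common chain of the receptors for C3 fragments, rose by 1.15 ± 0.12 (SE, n = 2, adjusted p = 0.01583 in limma), with 1.20 and 1.09 in untreated and 0.58 and 0.05 in endoglin siRNA cells. C5r1 (C5ar1), the receptor of the C5a fragment, rose by 0.82 ± 0.09 (adjusted p = 0.01736), with 0.92 and 0.73 in untreated and 0.27 and -0.03 in endoglin siRNA cells. Neither call held without either of the untreated arrays, where 0 genes of the list passed. In endoglin siRNA minus untreated 0 of 26 passed in limma, where 0.0862% of all genes did. The largest differences among the 26 were -0.83 for Itgb2 (adjusted p = 0.1947 in limma) and -0.70 for C5r1 (adjusted p = 0.1649).

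**Figure D3:**
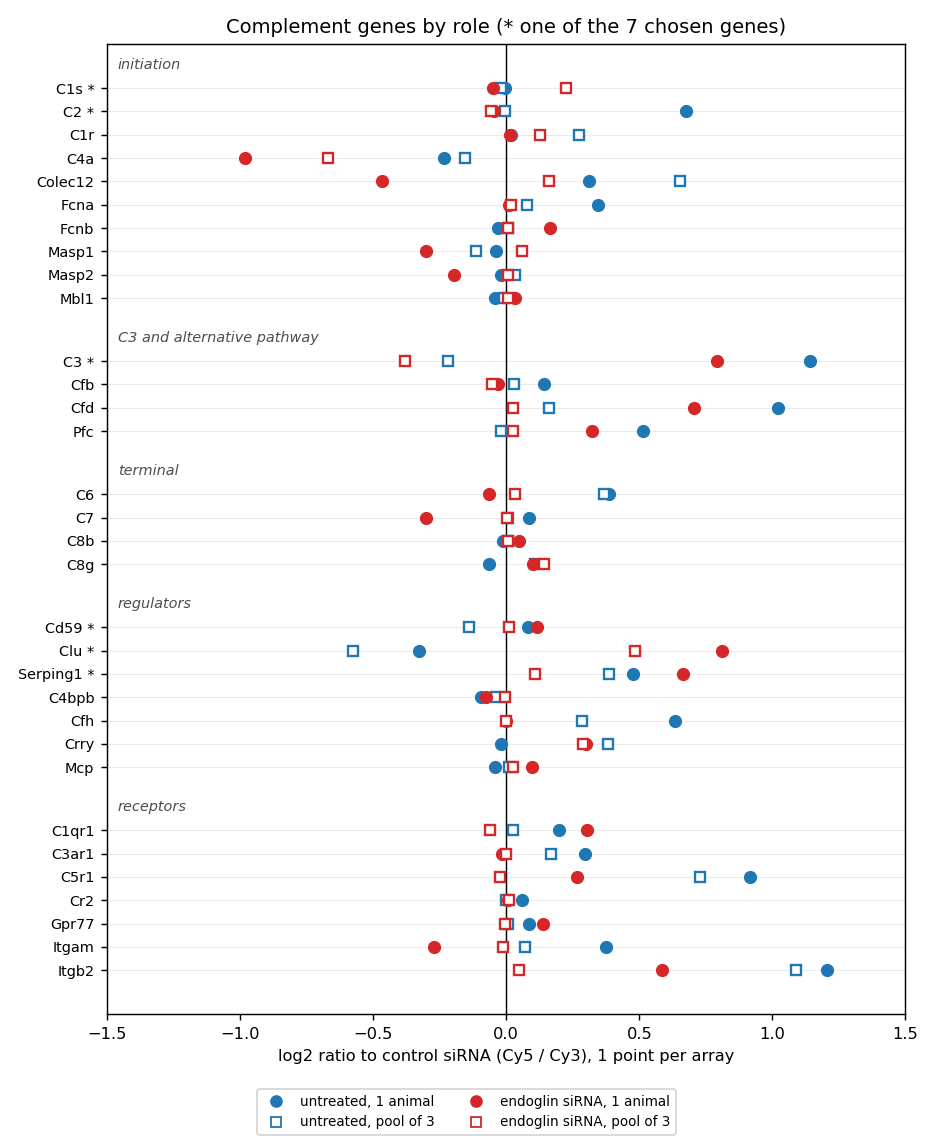
Log2 ratio to control siRNA (x axis) on each array for the tested complement genes other than C1q, grouped by role and named as on the array; symbols as in the plot of member ratios, and an asterisk marks the chosen genes. Of the genes drawn, C4a has the lowest value, -0.98, and Itgb2 the highest, 1.20.

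As a list, markers of macrophages were higher in untreated cells than in the control siRNA cells beside them. All 17 measured macrophage markers had a mean above 0 in untreated against control siRNA, with a median of 0.83, and 7 of 17 rose in limma, where 0.435% of all genes did. Their summed linear level was 90800 in untreated cells against 48522 in the control beside them for the single animal, and 31091 against 12748 for the pool. Beside the endoglin siRNA samples the sums were 49577 against 46151 and 12948 against 11033. In endoglin siRNA against control siRNA 14 of the 17 had a mean above 0, with a median of 0.14. In limma 1 of them rose and 0 fell, where 5.25% of all genes rose and 2.87% fell. The marker that rose was Cd14, with 0.35 (1 animal) and 0.75 (pool) in endoglin siRNA and 0.51 and 0.48 in untreated cells. The part of macrophages in the ratios of C2, C3, Itgb2 and C5r1 was not tested. The part of these cells in the clusterin ratio was not tested either. Of 16 hepatocyte markers 9 were tested, and their summed level stayed between 2441 and 3106 in every channel, while that of 17 stellate cell markers ran from 398909 to 595807. Of 6 cholangiocyte markers 4 were tested, with sums from 1083 to 3629, and Epcam was not well above background on any array. The sums do not show single genes. In endoglin siRNA against control siRNA, 1 hepatocyte marker rose and 0 fell in limma, and 3 stellate cell markers rose and 3 fell. Of the cholangiocyte markers 0 rose and 1 fell, where 5.25% of all genes rose and 2.87% fell.

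The macrophage list holds the C1q genes, whose products form the recognition part of C1 that activates C1s. C1qa had log2 ratios of 1.03 (1 animal) and 1.29 (pool) in untreated and 0.15 and -0.02 in endoglin siRNA cells, and C1qb had 1.14 and 0.78 against 0.35 and 0.31. Both rose in untreated against control siRNA, by 1.16 (adjusted p = 0.006554 in limma) and 0.96 (adjusted p = 0.01393). In endoglin siRNA minus untreated C1qa fell by 1.09 (adjusted p = 0.0383 in limma), while C1qb differed by -0.63 (adjusted p = 0.195). C1qg (C1qc) had 1.03 and 0.15 in untreated and 0.38 and 0.00 in endoglin siRNA cells and passed in neither.

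Some endothelial markers were high in the endoglin siRNA samples, in which clusterin was high, and others were not. Of 11 such markers 10 were tested. In endoglin siRNA against control siRNA 2 rose, 0 fell and 8 were not called in limma. Over all genes 5.25% rose and 2.87% fell. Oit3, a marker of sinusoidal endothelium on that list, had -0.19 (1 animal) and -0.43 (pool) in untreated and 0.94 and 0.83 in endoglin siRNA cells, and rose by 0.88 (adjusted p = 0.003749). Kdr, a VEGF receptor, had -0.03 and -0.03 against 1.33 and 0.41, and rose by 0.87 (adjusted p = 0.03104). The summed endothelial level was 15621 against 9892 in the control beside it and 11185 against 7931 with endoglin siRNA, and 12496 against 10883 and 6834 against 8254 in untreated cells. The median ratio of the 10 was 0.08 in endoglin siRNA cells, beside 0.02 over all genes. Fcgr2b went the other way, with 0.61 and 0.47 in untreated and 0.27 and 0.04 in endoglin siRNA cells. It was the 1 of the 10 that rose in untreated against control siRNA, by 0.54 (adjusted p = 0.03671 in limma). Oit3, Kdr and Fcgr2b were named after their values were seen, and the part of endothelial cells in the clusterin ratio was not tested.

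Because clusterin and C3 are known to respond to inflammatory signals, a list of 31 such genes was set beside them, 30 of them tested. In endoglin siRNA against control siRNA 4 of 30 rose and 1 fell in limma, where 5.25% of all genes rose and 2.87% fell. Nfkbia, the inhibitor of NF-kappaB, rose by 0.61 ± 0.06 (adjusted p = 0.00451), with 0.58 and 0.63 in endoglin siRNA and 0.07 and 0.05 in untreated cells. Nfkb1, a subunit of that factor, rose by 0.42 (adjusted p = 0.01517), and Ptgs2, the inducible cyclooxygenase, by 0.33 (adjusted p = 0.03904). RGD1311155, the cytokine Il33, fell by 0.78 (adjusted p = 0.03188). The calls of Nfkb1, Ptgs2 and Il33 were lost without endoglin siRNA replicate 1, the 1-animal array, and that of Ptgs2 also without either untreated array and, as for Il33, with the mean of probes.

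In the other comparisons 0 of the 30 inflammatory genes passed in limma. Over all genes 0.709% passed in untreated against control siRNA and 0.0862% in endoglin siRNA minus untreated. The largest values were 0.75 for Il1b and 0.38 for Vcam1 in untreated cells, and differences of 1.11 for Ccl2 and 0.88 for Cxcl1 between the treatments. Il1b had 1.39 (1 animal) and 0.11 (pool) in untreated and 1.24 and 0.02 in endoglin siRNA cells. It was thus high in both 1-animal samples and near 0 in both pools. Vcam1 had 0.41 and 0.35 in untreated and 1.15 and 0.25 in endoglin siRNA cells. Ccl2, a monocyte chemokine, had 0.59 and -0.81 in untreated and 1.95 and 0.05 in endoglin siRNA cells, so it varied with RNA source as well as treatment. Cxcl1, a neutrophil chemokine, had 0.68 and -0.47 in untreated and 1.57 and 0.41 in endoglin siRNA cells. Without endoglin siRNA replicate 1 the differences were 0.16 for Ccl2 and 0.30 for Cxcl1, and without untreated replicate 2 they were 0.41 and 0.31. With the RNA source as a block both passed in limma, with adjusted p-values of 0.00669 and 0.004219.

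Likeness was measured as the Euclidean distance between genes over the log2 ratios of the 4 arrays, with no test. Only genes whose name matched RefSeq were searched, without numbered LOC or RGD symbols. The 13372 unmatched genes of the 25534 were thus left out. Of the genes searched, Padi3, a peptidylarginine deiminase, was nearest to clusterin, at 0.177. It had -0.30 and -0.51 in untreated and 0.92 and 0.60 in endoglin siRNA cells. Slpi, a secreted inhibitor of leukocyte proteases, followed at 0.231, and Csf1, the macrophage growth factor, at 0.385. All of them, like clusterin, were below 0 in both untreated samples and above 0 in both endoglin siRNA samples.

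Among the genes searched, C3 had none as near. The closest were Slc13a3, a dicarboxylate transporter, at 0.515, the chemokine Ccl3 at 0.551 and the Kupffer cell lectin Clec4f at 0.561. Clec4f had ratios of 1.20 and 0.14 in untreated and 0.92 and 0.03 in endoglin siRNA cells, high in the 1-animal samples as C3 was. None of these genes matched the values below 0 that C3 had in both pools.

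Processing changed the sizes for clusterin and C3, and with median centring in place of loess neither gene kept its pattern of signs. Clusterin had both endoglin siRNA ratios above 0 and above both untreated ratios in each setting plotted, but with median centring in place of loess the untreated 1-animal ratio was 0.39. That setting leaves intensity-dependent dye bias in place and moved the median of all genes to 0.34, -0.16, 0.35 and 0.25 on the untreated 1-animal, untreated pool, endoglin siRNA 1-animal and endoglin siRNA pool arrays. The call of clusterin against control siRNA was lost with median centring, Feature Extraction's own log ratios, scaling between arrays and the deposited value table, settings in which 0 genes of any kind passed, and without endoglin siRNA replicate 1, the 1-animal array. The deposited table was read with the signs of both untreated arrays turned back to the labelled dyes, so it nearly repeats the Feature Extraction setting. C3 had a ratio of -0.38 in the endoglin siRNA pool as processed here and of -0.72 with no background correction. With median centring this ratio was 0.53, so C3 was no longer below 0 in both pools.

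**Figure D4:**
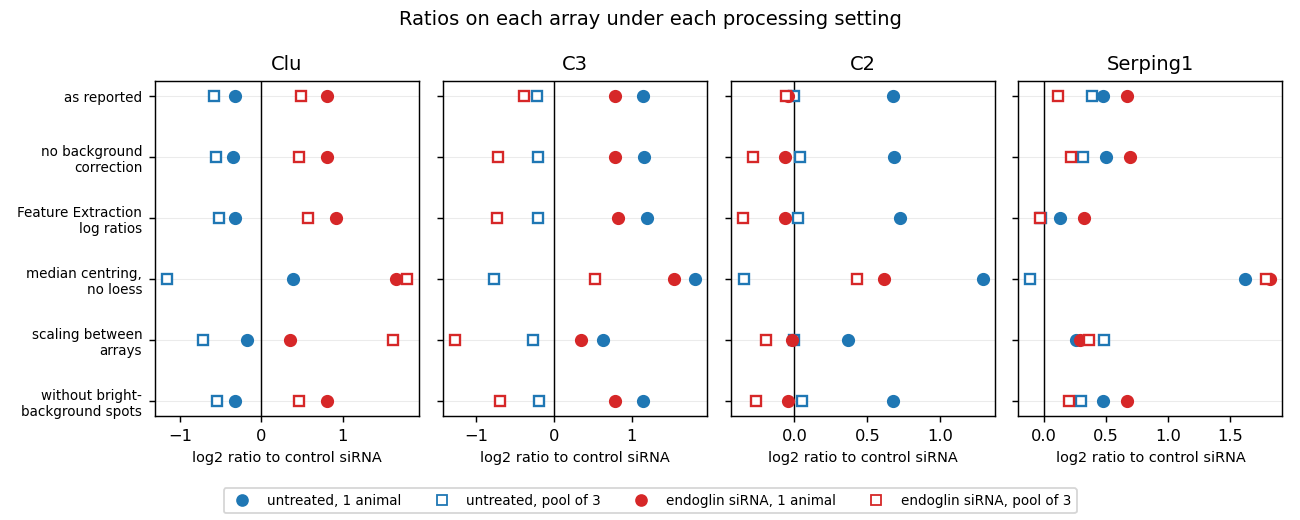
Log2 ratio to control siRNA (x axis) on each array for 4 of the chosen genes under each processing setting (rows); symbols as in the plot of member ratios, and the x axes differ between genes. The red clusterin points lie to the right of the blue ones in every row, and Serping1 nears 0 with the log ratios of Feature Extraction.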

How the data were processed

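Scanner files of 4 two-colour Agilent whole-genome rat arrays were used. According to the headers, the authors used version 9.5.1.1 of Agilent Feature Extraction. Per the file headers, spot and local background intensity values as deposited are linear scanner readings. The deposited log10 ratios are Cy5 over Cy3 after that software's background subtraction and dye normalization, per the file headers. The labels also name Rosetta Resolver. The deposited value table holds log10 ratios that equal those of the scanner files within 0.0048, with the sign turned on both untreated arrays; a single value is missing. The log2 ratios were computed here. Where the deposited table served as a processing setting, its untreated signs were turned back to the labelled dyes.

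Signals were corrected by normexp (offset 50) and ratios by within-array loess in limma 3.58.1 (R 4.3.3), with control spots at weight 0 and flagged spots left out. Channel levels are loess and Aquantile values. Spots of a probe were averaged. A probe was kept if either channel was well above background on 2 or more arrays (29845 with values on all 4 arrays), and the brightest probe stood for a name, giving 25534 genes. All 4 arrays entered 1 fit of 2 group means with empirical Bayes variances (degrees of freedom 2 residual, 5.27 prior), with p-values adjusted by Benjamini-Hochberg and a threshold of 0.05. The p-values leave out any spread of the control siRNA RNA itself. All arrays lay on 1 slide.

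The fit was tested on simulated data: it gave called genes their true sign and held the 5% aim when variances followed the fitted prior. When the simulated variances did not follow it, the share of unchanged genes among calls exceeded that aim, so the calls may hold more false ones than 5%.

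Names were updated with RefSeq (GRCr8), through the accession for 6665 genes, the symbol for 3228 and a synonym for 2269; the other 13372 kept the array's name. The name Fh on the complement list matched fumarate hydratase and was left out. Members and lists were chosen with earlier results of these data known. Genes named are all members and probes, and complement and inflammatory genes that passed or else the 2 largest (at most 8 and 4). Also named are endoglin and the 3 genes nearest to clusterin and to C3, sought only among names matched to RefSeq. Alternatives were other background, normalization and filter settings, the mean of probes, the deposited table, leaving out each array, and the RNA source as a block; the fit of the background without 12 spots of bright local background (above 1000) was chosen after seeing the data.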

Additional observations from a re-analysis of the deposited data

Results flagged for a closer look

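The Cd59 level in the control siRNA RNA was 11.81 (log2, Cy3) on the array of the untreated single animal and between 13.40 and 13.55 on the other 3. The gap to the nearest value was 0.916 of the whole range, above Dixon's critical value for 4 samples. Chance gives such a gap in about 1 of 20 groups, and 11 probes were looked at. Clusterin was below control siRNA in both untreated samples and above it in both endoglin siRNA samples, with a difference of 1.10. C3 was above control siRNA in both 1-animal samples and below it in both pools, with a difference between the source means of 1.27 (0.97 against -0.30). The clusterin difference did not pass limma over all genes as reported here, and the C3 difference between sources was not tested. Both genes were among those chosen with these results known.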

How the results depend on the processing

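Counts of genes passing limma depended strongly on processing. The deposited table, read with its untreated signs turned back, nearly repeats Feature Extraction's own log ratios and is not a separate check. In endoglin siRNA against control siRNA, 2073 genes passed as reported, 4515 with no background correction, 4159 without bright-background spots, and 0 with median centring, Feature Extraction's own log ratios, scaling or the deposited table, where 6185, 7111, 1424 and 7108 had an unadjusted p under 0.05. Members passing were 2 (clusterin and Serping1) with no background correction and without bright-background spots and 0 in the same 4 settings; other complement genes were 3, 2 and 0. In untreated against control siRNA, 181 genes passed as reported, 509 with no background correction, 357 with no filter on dim probes, 474 without bright-background spots and 0 in those 4 settings, where 73, 3332, 579 and 3333 had an unadjusted p under 0.05. Other complement genes were 6 with no background correction, 5 without bright-background spots and 0 in those 4. In endoglin siRNA minus untreated, 22 genes passed as reported, 168 with no background correction, 47 with no filter on dim probes, 206 without bright-background spots and 0 in those 4 settings, where 260, 2778, 352 and 2773 had an unadjusted p under 0.05. Members were 1 (clusterin) with no background correction, no filter or without bright-background spots, and other complement genes 1 with no background correction and 2 without bright-background spots. Leaving out each array gave 900 to 2684, 0 to 760 and 0 to 434 genes for the 3 comparisons in this order, 0 to 2, 0 to 2 and 0 to 1 members, and 1 to 2, 0 to 5 and 0 to 2 other complement genes. With the RNA source as a block, 270 genes passed in endoglin siRNA minus untreated, among them Ccl2 and Cxcl1. They included 1 member (clusterin) and 4 other complement genes (C4a, C5r1, Colec12 and Itgb2). Over genes, the deviations of the 1-animal arrays from their group means had a correlation of 0.293. With 2 arrays a group the pools must give the same value, so this is 1 comparison. The labels do not say that arrays of the same source share animals. C4a against control siRNA was 0.30 with median centring, opposite to its reported direction. The cause of these changes was not tested. The number of arrays, 2 a group without swapped dyes, limits every value, and low signal over background also limits Cd55.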

Other observations

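An expressed sequence tag that the array files describe as similar to clusterin, BM986266, has a probe at chr15:45420470-45420529, listed on the minus strand beside the clusterin probe at chr15:45420570-45420918 on the plus strand. It was found after the values were seen. Its log2 ratios were -0.11 (1 animal) and -0.18 (pool) in untreated cells and 0.22 and 0.03 in endoglin siRNA cells. These have the signs of clusterin on all 4 arrays, and 10.1% of all genes had opposite signs in the treatments. The tag passed in no comparison in limma. Its signals over background ran from 19 to 237.6.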
